A study of Mus musculus with 12 samples.

Results

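The 37 genes described here encode proteins that carry cells through DNA replication and mitosis, and their RNA was followed in mouse dorsal root ganglia (DRG) after a crush of the sciatic nerve. They were taken by name from a list of cell cycle genes, all 37 were found among the 44345 genes of the deposited table, and they were split by role into 2 genes of entry into S phase, 10 genes of DNA replication and 25 genes of G2 and mitosis. DRG hold the cell bodies of sensory neurons together with satellite glia, Schwann cells, macrophages, vessels and connective tissue. The 4 groups, of C57BL/6 mice aged 6 to 8 weeks, held 3 libraries each, and each library was made from the pooled L4 to L6 DRG of 2 mice. IPA-SNC mice had 10 days of daily gavage with 20 mg/kg of indole-3-propionic acid (IPA), a tryptophan product of intestinal bacteria, then the sciatic nerve crush, then 3 more days of IPA before the DRG were taken. PBS-SNC mice had phosphate-buffered saline (PBS), the vehicle, for 10 days and then the crush, with DRG taken 3 days later; whether their gavage went on after the crush is not clear from the labels. IPA mice had the same 10 days of IPA, and PBS mice 10 days of vehicle, both with an intact nerve. Sex was not given for any group.

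Mature neurons have left the cell cycle, whereas glia, macrophages, endothelial cells and fibroblasts can divide again. A cell that commits to division raises the D and E cyclins, loads the MCM2 to MCM7 helicase on its DNA, copies the DNA with the help of PCNA and a supply of deoxynucleotides, and then switches on the cyclins, kinases and spindle proteins of mitosis. The late genes are held silent in resting cells by the DREAM complex, which binds a promoter element called the CHR, often beside CCAAT boxes bound by NF-Y, while many replication genes carry E2F sites.

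Reads recovered from the values came to 40938034 to 62501969 per library. The values behave as CPM (counts scaled to library size), with no division by gene length, and a single read adds between 0.0130 and 0.0199 to a value. The members rested on 7 reads (Aurkb in PBS replicate 2) to 2108 reads (Pcna) per library. Of 8 marker genes of injured sensory neurons, such as Atf3, 8 were higher after crush, where 28.8% of all tested genes were higher. Their summed level per kb of exon was 2208 ± 126 in IPA-SNC, 2132 ± 157 in PBS-SNC, 173 ± 5.5 in IPA and 162 ± 17.8 in PBS libraries (mean ± SD, n = 3 each). None of the 12 sensory neuron markers was at 0 in any library.

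After crush, 21 of 25 mitosis genes and 6 of 10 replication genes were higher, and no member was lower when both treatments were averaged. Over the averaged injury contrast (the 6 crush libraries against the 6 intact ones, limma with Benjamini-Hochberg adjusted p under 0.05 over 15603 tested genes), 27 of the 37 members were higher, 0 were lower and 10 were not called. Among all tested genes 28.8% were called higher and 30.6% lower in that contrast. Of the 2 S-phase entry genes 0 were higher. The median log2 change was 0.59 for the mitosis genes, 0.34 for the replication genes and -0.04 for the entry genes, against -0.01 over all tested genes. The values of all 6 crush libraries lay above those of all 6 intact libraries for 21 members, 17 of them mitosis genes and 4 replication genes; 18.2% of tested genes did so. In bulk RNA, more dividing cells and more RNA per cell cannot be told apart.

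Under IPA (IPA-SNC against IPA) 19 of 25 mitosis and 5 of 10 replication genes were higher and 0 members were lower, where 21.2% of tested genes were higher and 22.5% lower. Under vehicle (PBS-SNC against PBS) 18 of 25 mitosis and 5 of 10 replication genes were higher and 1 member was lower, where 23.6% of tested genes were higher and 24.4% lower. These 2 contrasts share no library, and over the 37 members their log2 changes had a Pearson r of 0.951 and a Spearman rho of 0.930, given as a description over genes, which are not independent. IPA-SNC mice had 3 more days of IPA than IPA mice. Injury and length of dosing therefore cannot be told apart under IPA, which also enters the averaged contrast. Under vehicle, PBS-SNC DRG were taken 3 days after the crush, and whether gavage went on in those days is not clear. Injury cannot be told apart from these added days or from any added gavage there. All 37 members passed the low-value filter (at least 0.5 in at least 3 of 12 libraries), but 4 mitosis genes would not have passed on intact libraries alone: Ccnb1 and Aurkb reached 0.5 in 0 of 6 intact libraries and Ccnb2 and Cenpf in 2 of 6. Of the other 33 members, 23 were higher in the averaged contrast, among them 17 of 21 mitosis genes. The medians, the counts without overlap and the counts under IPA and under vehicle were not recomputed without these 4 genes.

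**Figure D1:**
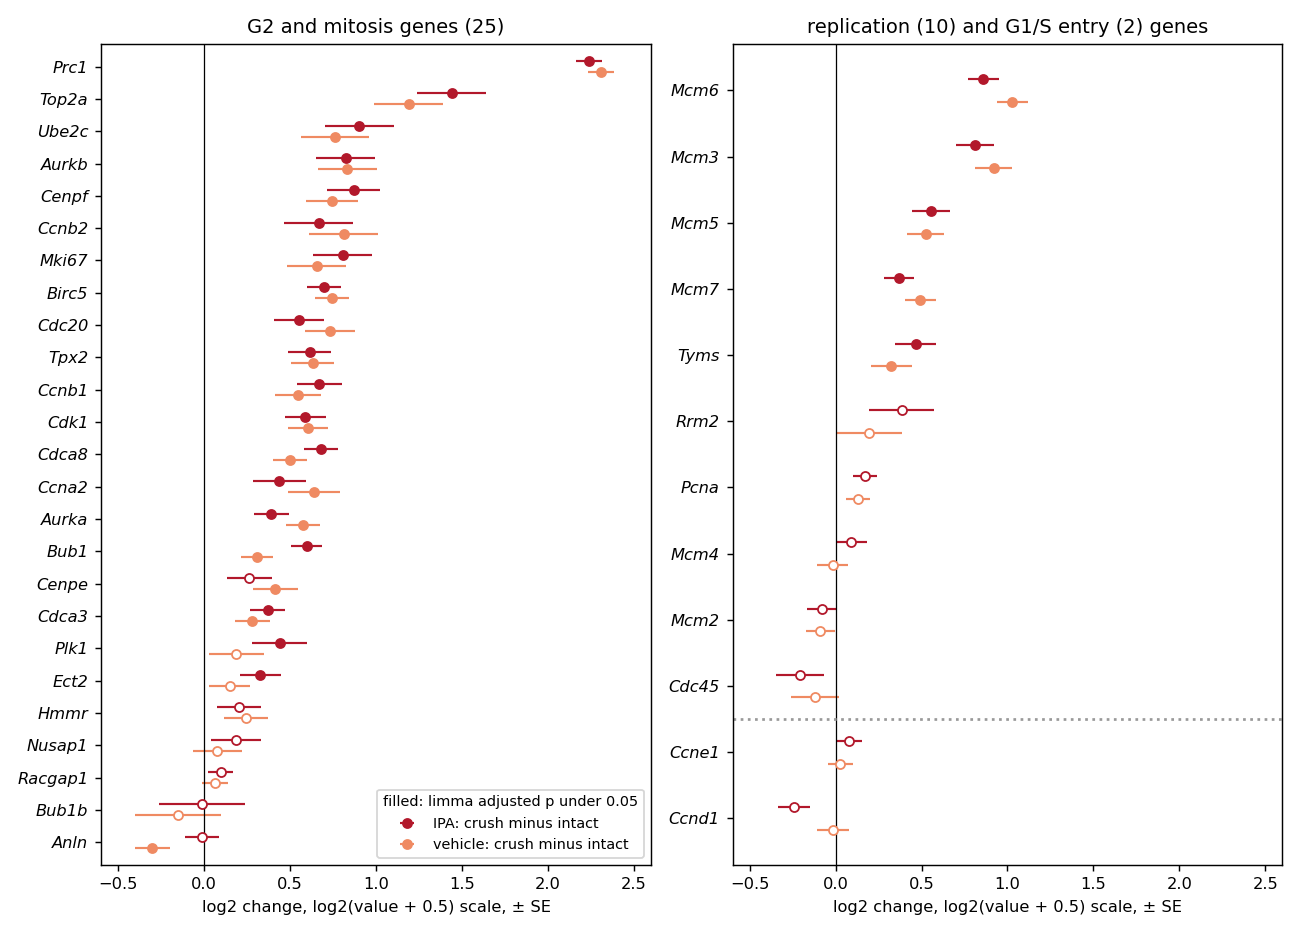
Log2 change (± SE, limma) after crush for each member under IPA (dark red) and under vehicle (orange), on the log2(value + 0.5) scale, with filled points for adjusted p under 0.05; the dotted line parts replication from S-phase entry genes. Prc1 lies at 2.24 under IPA and 2.31 under vehicle, far right of the other members, while Anln, Bub1b, Mcm2, Cdc45 and Ccnd1 lie left of 0 in both.

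Prc1 had the largest log2 change of the 37 members, under IPA and under vehicle alike. On the log2(value + 0.5) scale Top2a, Mcm6 and Mcm3 came next in the averaged contrast. On recovered reads (edgeR) the order after Top2a was Aurkb (1.57), Cenpf (1.42), Ccnb1 (1.32), Ccnb2 and Ube2c (1.22). All of these were above Mcm3 (1.05) and Mcm6 (1.00). Aurkb, Cenpf, Ccnb1 and Ccnb2 passed the low-value filter only with the crush libraries. Their folds rest on few intact reads and give no firm order. Prc1 encodes the microtubule bundler that builds the central spindle before cytokinesis (mm10 chr7:80294450-80316259, ENSMUSG00000038943). Prc1 stood at 16.6, 16.9 and 16.2 in IPA-SNC and 20.4, 18.1 and 19.1 in PBS-SNC libraries, against 2.85, 3.37 and 3.16 in IPA and 3.3, 3.58 and 3.54 in PBS libraries. The crush libraries were all several-fold above every intact one, and the spread within each group was small. The averaged log2 change was 2.27 ± 0.05 (SE), a 4.84-fold change on the log2(value + 0.5) scale, with adjusted p = 2.79e-13. It ranked 69 among the rises of the 15603 tested genes, with Top2a at 289 and Mcm6 at 559. Per kb of exon, Prc1 ranked 7 of 37 members after crush and 22 of 37 in intact DRG, and it made up 27.9% of the summed gain per kb of the 25 mitosis genes. Its exons share 911 bases with Rccd1 on the opposite strand, and whether the authors' counting used strand is not given; Rccd1 was lower, at 2.73 ± 0.342 after crush and 3.6 ± 0.218 in intact libraries (mean ± SD, n = 6 each; adjusted p = 0.00169).

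The promoter windows of the members with the largest changes are shown because motifs of cell cycle control lie in them; they are 300 bases each, from 250 before to 50 after the start, 5′ to 3′ on the gene's strand, credited to RefSeq on GRCm38.p6, with capitals marking motif matches on either strand. The CHR letters searched were TTTGAA and, as a variant of it, TTTAAA; the box bound by NF-Y was searched as CCAAT; the E2F letters were TTTGGCGC, TTTCCCGC, TTTGCCGC and TTTCGCGC. The Prc1 window is chr7:80294201-80294500 (+ strand):
Prc1: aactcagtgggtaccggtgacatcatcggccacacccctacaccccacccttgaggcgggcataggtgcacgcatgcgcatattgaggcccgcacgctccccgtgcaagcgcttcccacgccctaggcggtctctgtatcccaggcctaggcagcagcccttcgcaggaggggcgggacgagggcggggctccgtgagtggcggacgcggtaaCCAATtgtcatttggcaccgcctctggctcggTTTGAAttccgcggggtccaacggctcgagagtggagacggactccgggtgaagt
Top2a, the topoisomerase that untangles sister chromatids, has the window chr11:99024140-99024439 (- strand):
Top2a: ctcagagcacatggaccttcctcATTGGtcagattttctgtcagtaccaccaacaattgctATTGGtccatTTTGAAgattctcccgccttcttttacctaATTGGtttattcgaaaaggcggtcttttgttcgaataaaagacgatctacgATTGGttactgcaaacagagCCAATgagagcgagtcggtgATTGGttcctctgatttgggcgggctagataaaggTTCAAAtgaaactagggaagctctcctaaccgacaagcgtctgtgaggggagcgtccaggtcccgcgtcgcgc
In the Prc1 window 1 CHR match ends at the start base itself (-5 to 0, with the start base as 0) and 1 CCAAT match lies at -37 to -33. In the Top2a window 1 CHR match lies at -23 to -18 and another at -179 to -174, with 6 CCAAT matches upstream of the start.

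Top2a was the other member to pass 1 on the log2 scale; 3.22% of tested genes rose by that much. It stood at 3.21, 3.7 and 4.55 in IPA-SNC and 3.58, 4.01 and 3.43 in PBS-SNC libraries, against 0.835, 1.45 and 1.01 in IPA and 1.31, 0.834 and 2.02 in PBS libraries. Every crush library was above every intact one, although the highest PBS library reached 2.02. The averaged log2 change was 1.32 ± 0.14 with adjusted p = 2.31e-06. On recovered reads, with no 0.5 added, edgeR's quasi-likelihood test put 9 members over 1, with 2.45 for Prc1 and 1.60 for Top2a. The added 0.5 shrinks the changes of genes with low values. The share of all tested genes over 1 in edgeR was not computed, so the 9 is no result about the members. Among the 9 are Aurkb, Cenpf, Ccnb1 and Ccnb2, which passed the low-value filter only with the crush libraries.

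Ube2c, the ubiquitin-conjugating enzyme of the anaphase-promoting complex, stood at 1.45, 1.4 and 1.85 in IPA-SNC and 1.21, 1.42 and 1.33 in PBS-SNC libraries, against 0.41, 1.01 and 0.47 in IPA and 0.54, 0.341 and 0.91 in PBS libraries. The intact libraries spread widely, with 1 high library in each intact group, yet none reached a crush library. Its averaged log2 change was 0.83 ± 0.14 (adjusted p = 0.000168). Aurkb, the kinase of the chromosomal passenger complex, stood at 0.952, 0.751 and 1.15 in IPA-SNC and 0.756, 1.27 and 0.865 in PBS-SNC libraries, against 0.268, 0.393 and 0.285 in IPA and 0.366, 0.133 and 0.48 in PBS libraries. The groups did not overlap, and the averaged log2 change was 0.83 ± 0.12 (adjusted p = 4.68e-05). Aurkb passed the low-value filter only with the crush libraries, so its call is not separate support for a rise.

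The mitotic cyclins and their kinase had positive averaged log2 changes, though not all of these calls are separate support for a rise. Ccnb2 had an averaged log2 change of 0.74 ± 0.14, Ccnb1 0.61 ± 0.09, their partner Cdk1 0.60 ± 0.08 and Ccna2, the cyclin of S and G2, 0.54 ± 0.11 (largest adjusted p = 0.000656). Ccnb1 and Ccnb2 passed the low-value filter only with the crush libraries, so their calls are not separate support for a rise. Cdk1 averaged 1.23 ± 0.202 after crush and 0.64 ± 0.0595 in intact libraries (mean ± SD, n = 6 each). A named pseudogene, Ccnb2-ps, is also in the table at 1.16 ± 0.137 after crush and 1.23 ± 0.105 in intact libraries (mean ± SD, n = 6 each), so reads of Ccnb2 could be split with it. Ccna2 shares 510 exon bases with Exosc9 on the opposite strand, a more abundant gene at 22.4 ± 1.88 after crush and 20.6 ± 0.78 in intact libraries, so the level of Ccna2 is uncertain if strand was not used. Ccna2 itself averaged 1.68 ± 0.322 after crush and 1.00 ± 0.184 in intact libraries. Under IPA the calls of Ccnb2 and Ccna2 could be ended by 1 library. Without IPA-SNC replicate 3 the log2 changes were 0.46 for Ccnb2 and 0.30 for Ccna2 (adjusted p = 0.0745 and 0.138). Without IPA replicate 3 they were 0.56 and 0.37 (adjusted p = 0.0677 and 0.114), and Ccna2 also missed the threshold without IPA replicate 1 (adjusted p = 0.0745).

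Other genes of the chromosomal passenger complex and the spindle rose as well, though the spindle genes Nusap1 and Racgap1, given below, were not called. Birc5 (survivin) rose by 0.72 ± 0.07 and Cdca8 (borealin) by 0.59 ± 0.07; Cdca8 averaged 2.9 ± 0.0873 after crush and 1.77 ± 0.223 in intact libraries. Tpx2, which activates Aurora A on the spindle, rose by 0.62 ± 0.09 and Aurka itself by 0.48 ± 0.07. Cenpf, a kinetochore protein, rose by 0.81 ± 0.11, and Cenpe, the kinetochore motor, by 0.34 ± 0.09. Cenpf passed the low-value filter only with the crush libraries, so its call is not separate support for a rise. Mki67, the widely used proliferation marker that coats mitotic chromosomes, averaged 4.6 ± 0.503 after crush and 2.62 ± 0.643 in intact libraries, a log2 change of 0.73 ± 0.12 (adjusted p = 0.000141). Cdc20, the activator of the anaphase-promoting complex, rose by 0.64 ± 0.10, Bub1, a kinase of the spindle checkpoint, by 0.45 ± 0.07 and Cdca3, a trigger of mitotic entry, by 0.32 ± 0.07. These 10 genes had adjusted p values from 8.90e-07 (Birc5) to 0.0055 (Cenpe). Cdc20 shares 53 exon bases with Elovl1 on the opposite strand, at 55.7 ± 3.95 after crush and 51.3 ± 2.33 in intact libraries. Cdca8 shares 232 with 9930104L06Rik, also opposite, at 8.44 ± 0.507 after crush and 8.87 ± 0.743 in intact libraries. The levels of both members are uncertain if strand was not used.

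Plk1, a master kinase of mitosis, Ect2, the exchange factor that starts the cleavage furrow, and Hmmr, a spindle and hyaluronan-binding protein, were called by small margins. Their averaged log2 changes were 0.31 ± 0.11 (adjusted p = 0.028), 0.24 ± 0.09 (adjusted p = 0.0276) and 0.22 ± 0.09 (adjusted p = 0.0477). Each call could be ended by leaving out 1 library. For Plk1 this held of IPA replicate 3 (adjusted p = 0.0639), IPA-SNC replicate 1 (adjusted p = 0.0593), IPA-SNC replicate 3 (adjusted p = 0.0517), PBS replicate 2 (adjusted p = 0.0744), PBS-SNC replicate 2 (adjusted p = 0.0665) or PBS-SNC replicate 3 (adjusted p = 0.0703). For Ect2 it held of IPA replicate 2 (adjusted p = 0.0581), IPA-SNC replicate 2 (adjusted p = 0.0515), IPA-SNC replicate 3 (adjusted p = 0.0682), PBS replicate 3 (adjusted p = 0.065) or PBS-SNC replicate 1 (adjusted p = 0.0637). For Hmmr it held of IPA replicate 1 (adjusted p = 0.0808), IPA replicate 2 (adjusted p = 0.0645), IPA replicate 3 (adjusted p = 0.0852), IPA-SNC replicate 2 (adjusted p = 0.0544), IPA-SNC replicate 3 (adjusted p = 0.112), PBS replicate 1 (adjusted p = 0.102), PBS replicate 2 (adjusted p = 0.0986), PBS-SNC replicate 1 (adjusted p = 0.101) or PBS-SNC replicate 2 (adjusted p = 0.10). Their crush and intact libraries overlapped.

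Of the 4 mitosis genes that were not called in the averaged contrast, Racgap1 and Bub1b changed least. Racgap1, which with Ect2 and Prc1 works at the central spindle, stood at 12.6, 12.6 and 14.5 in IPA-SNC and 13.7, 14.7 and 12.8 in PBS-SNC libraries, against 12.7, 12 and 12.4 in IPA and 13, 12.6 and 13.7 in PBS libraries. All 12 libraries fell in 1 narrow band, and the averaged log2 change was 0.08 ± 0.05 (adjusted p = 0.201, 95% interval -0.03 to 0.19). Bub1b, the BubR1 checkpoint kinase, stood at 2.45, 3.12 and 3.42 in IPA-SNC and 2.82, 3.07 and 2.8 in PBS-SNC libraries, against 4.81, 1.89 and 2.89 in IPA and 4.93, 2.67 and 2.63 in PBS libraries. Replicate 1 of both intact groups was far above the rest, and the log2 change of -0.08 ± 0.18 had a 95% interval of -0.47 to 0.30. Nusap1, a spindle microtubule binder, had a log2 change of 0.13 ± 0.10 (adjusted p = 0.287).

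Anln was the 1 member called lower, and in 1 contrast. It encodes anillin, the scaffold of the contractile ring, which is also known from myelin of the central nervous system. It stood at 6.25, 5.82 and 8.05 in IPA-SNC and 5.75, 6.15 and 6.43 in PBS-SNC libraries, against 7.0, 6.39 and 6.75 in IPA and 7.57, 7.85 and 7.5 in PBS libraries. Under vehicle the groups did not overlap, as for 26.0% of tested genes in that direction, and its log2 change was -0.30 ± 0.10 (adjusted p = 0.0234); under IPA, where IPA-SNC replicate 3 was high, it was -0.01 ± 0.10 (adjusted p = 0.935). The call under vehicle ended without PBS-SNC replicate 1 (adjusted p = 0.059), PBS replicate 1 (adjusted p = 0.0529) or PBS replicate 2 (adjusted p = 0.0696). Of 8 Schwann cell markers 2 were lower and 1 higher under vehicle, where 24.4% of all tested genes were lower and 23.6% higher. Their part in the Anln values was not tested.

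**Figure D2:**
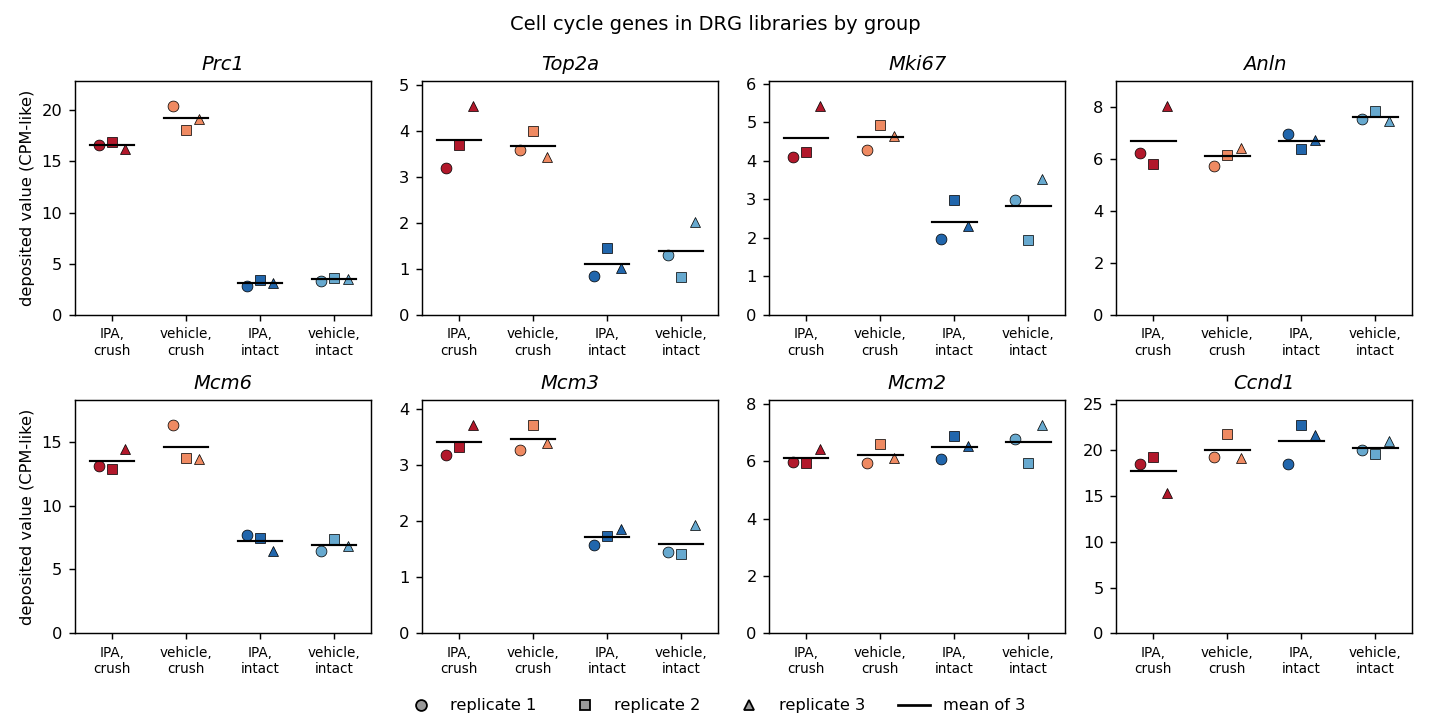
Deposited value (CPM-like, linear axis from 0) of 8 members in each library, by group, with symbols for replicates and a bar for the mean of 3. Prc1, Top2a, Mki67, Mcm6 and Mcm3 separate crush from intact libraries, while Anln, Mcm2 and Ccnd1 overlap.

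Among the replication genes the helicase subunits parted. Mcm6, 1 subunit of the MCM2 to MCM7 ring that unwinds DNA, stood at 13.1, 12.9 and 14.4 in IPA-SNC and 16.4, 13.7 and 13.6 in PBS-SNC libraries, against 7.67, 7.5 and 6.43 in IPA and 6.42, 7.36 and 6.87 in PBS libraries. Crush libraries were all well above intact ones, and the averaged log2 change was 0.94 ± 0.06 (adjusted p = 2.11e-08). Mcm3 stood at 3.18, 3.33 and 3.71 in IPA-SNC and 3.26, 3.72 and 3.39 in PBS-SNC libraries, against 1.58, 1.74 and 1.86 in IPA and 1.45, 1.42 and 1.94 in PBS libraries. It too separated fully, with a log2 change of 0.87 ± 0.08 (adjusted p = 3.16e-07). Which of Mcm6 and Mcm3 rose more depends on the scale, Mcm6 with 0.5 added and Mcm3 on recovered reads.

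The windows of Mcm6 and Mcm3 hold E2F letters and no CHR match. That of Mcm6 is chr1:128359656-128359955 (- strand):
Mcm6: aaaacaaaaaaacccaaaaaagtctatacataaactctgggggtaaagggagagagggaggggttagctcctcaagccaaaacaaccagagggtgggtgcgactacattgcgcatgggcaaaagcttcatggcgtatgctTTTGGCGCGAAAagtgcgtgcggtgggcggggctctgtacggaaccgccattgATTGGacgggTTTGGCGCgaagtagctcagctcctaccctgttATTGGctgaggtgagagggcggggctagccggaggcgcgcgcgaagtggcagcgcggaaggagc
That of Mcm3 is chr1:20820263-20820562 (- strand):
Mcm3: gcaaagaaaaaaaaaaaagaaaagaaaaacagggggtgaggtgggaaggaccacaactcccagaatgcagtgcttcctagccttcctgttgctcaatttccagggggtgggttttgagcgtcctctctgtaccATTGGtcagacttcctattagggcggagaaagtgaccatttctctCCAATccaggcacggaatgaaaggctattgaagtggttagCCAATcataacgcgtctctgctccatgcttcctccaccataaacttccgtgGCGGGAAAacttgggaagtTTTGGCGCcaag
Mcm6 has 3 E2F matches, a pair of which share 4 bases at -110 to -99, the other lying at -47 to -40; Mcm3 has 2, at 19 to 26 and 38 to 45.

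Mcm5 and Mcm7 rose by less. Mcm5 stood at 5.49, 5.21 and 5.64 in IPA-SNC and 5.23, 5.41 and 5.34 in PBS-SNC libraries, against 3.09, 3.65 and 3.94 in IPA and 3.22, 3.22 and 4.3 in PBS libraries, with an averaged log2 change of 0.54 ± 0.08 (adjusted p = 3.40e-05). Mcm7 stood at 8.16, 8.74 and 9.56 in IPA-SNC and 8.37, 9.46 and 8.99 in PBS-SNC libraries, against 6.49, 7.1 and 6.58 in IPA and 5.65, 6.09 and 6.92 in PBS libraries, with a log2 change of 0.43 ± 0.06 (adjusted p = 3.92e-05). Neither gene's groups overlapped. Mcm7 shares 321 exon bases with Ap4m1 on the opposite strand, which averaged 7.78 ± 0.204 after crush and 8.08 ± 0.664 in intact libraries. It also shares 64 with Cops6, a more abundant gene on the opposite strand. Cops6 was higher too, at 100 ± 5.42 after crush and 90.2 ± 2.73 in intact libraries (limma adjusted p = 0.00331). The level of Mcm7 is uncertain if strand was not used.

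The other helicase subunits were not called. Mcm4 stood at 12, 12.5 and 14.4 in IPA-SNC and 13.7, 11 and 13.2 in PBS-SNC libraries, against 12.6, 11.8 and 12 in IPA and 11.9, 13.3 and 13.1 in PBS libraries. Mcm2 stood at 5.98, 5.95 and 6.42 in IPA-SNC and 5.95, 6.61 and 6.11 in PBS-SNC libraries, against 6.08, 6.9 and 6.53 in IPA and 6.76, 5.95 and 7.28 in PBS libraries. Both genes overlapped between crush and intact libraries. Their averaged log2 changes had 95% intervals of -0.10 to 0.17 (Mcm4) and -0.21 to 0.04 (Mcm2), neither of which reaches the 0.43 of Mcm7. Cdc45, which completes the active helicase, had a log2 change of -0.16 ± 0.10 (adjusted p = 0.171). Cdc45 shares 209 exon bases with Ufd1 on the opposite strand, at 64.7 ± 3.63 after crush and 59.9 ± 1.14 in intact libraries. Ufd1 was higher (limma adjusted p = 0.0276). The level and the change of Cdc45 are uncertain if strand was not used.

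Tyms, the thymidylate synthase, rose by 0.40 ± 0.08 (adjusted p = 0.00112) and Pcna, the sliding clamp of the polymerases, by 0.15 ± 0.05 (adjusted p = 0.0154). Pcna averaged 29.3 ± 2.1 after crush and 26.3 ± 0.878 in intact libraries (mean ± SD, n = 6 each), and per kb of exon it was the highest of the 37 members in both states. Rrm2, the regulated subunit of ribonucleotide reductase, had a log2 change of 0.29 ± 0.13 that was not called (adjusted p = 0.0764); IPA-SNC replicate 3 was at 3.11, where the other crush libraries were at 1.5 to 2.02.

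The S-phase entry genes did not pass the test. Ccnd1, the D-type cyclin that answers to growth signals, stood at 18.5, 19.3 and 15.3 in IPA-SNC and 19.3, 21.7 and 19.1 in PBS-SNC libraries, against 18.5, 22.8 and 21.6 in IPA and 20.0, 19.6 and 21 in PBS libraries. Ccne1, the E-type cyclin of the G1/S switch, stood at 11, 10.8 and 11.8 in IPA-SNC and 11.8, 11.4 and 11 in PBS-SNC libraries, against 9.82, 10.8 and 11 in IPA and 10.9, 12 and 10.7 in PBS libraries. Both overlapped between crush and intact groups. Their averaged log2 changes were -0.13 ± 0.07 (adjusted p = 0.113) and 0.05 ± 0.05 (adjusted p = 0.372), and per kb of exon they ranked next after Pcna in both states, Ccnd1 at 4.01 after crush and 4.37 in intact libraries. Ccnd1 shares 1100 exon bases with LTO1 on the opposite strand, which averaged 43.2 ± 1.77 after crush and 37.4 ± 0.523 in intact libraries (mean ± SD, n = 6 each). LTO1 was higher (limma adjusted p = 0.000125). The level and the change of Ccnd1 are uncertain if strand was not used.

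Levels per kb of exon allow a rough comparison between genes. The length used was that of all annotated exons of a gene merged, which can exceed that of the RNA made. The median level per kb of the mitosis genes was 0.555 after crush and 0.292 in intact libraries, and that of the replication genes was 1.13 after crush and 0.921 in intact libraries. The summed mitosis level per kb was 17.2 ± 1.75 in IPA-SNC, 17.3 ± 0.701 in PBS-SNC, 10.8 ± 0.16 in IPA and 10.9 ± 1.14 in PBS libraries (mean ± SD, n = 3 each). Without Prc1 it was 15.2 ± 1.79 in IPA-SNC, 14.9 ± 0.831 in PBS-SNC, 10.4 ± 0.155 in IPA and 10.5 ± 1.14 in PBS libraries. The summed replication level was 25.5 ± 2.24, 25.6 ± 1.1, 20.9 ± 0.354 and 21.3 ± 1.11 in IPA-SNC, PBS-SNC, IPA and PBS libraries. Every crush library was above every intact library in each of these sums. Mcm6 held 33.7% of the replication gain per kb.

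Single libraries stood out across members. IPA-SNC replicate 3 was the highest of its group in 31 of 37 members, where it was highest in 49.2% of all tested genes, and PBS replicate 3 was the highest of its group in 25 of 37, against 43.4% of tested genes. Markers of invading and resident immune cells moved with injury as well. In the averaged contrast, used for the counts that follow, 28.8% of all tested genes were higher and 30.6% lower. Of 12 macrophage markers 12 were higher after crush, 0 were at 0, and their summed level per kb ranged from 121 to 148 in IPA-SNC, 123 to 139 in PBS-SNC, 39 to 60.6 in IPA and 39.5 to 51 in PBS libraries. Of 9 monocyte and neutrophil markers 6 were higher, and their sum ranged from 33.1 to 125 in IPA-SNC, 40.3 to 73.1 in PBS-SNC, 16.3 to 31 in IPA and 14 to 46 in PBS libraries. IPA-SNC replicate 3 was the highest library of both sums too. This was not particular to immune markers. The same library was highest for the fibroblast and meninges sum (655, next 619 in PBS-SNC replicate 2). Among crush libraries it was highest for the endothelial and pericyte sum (52.8). It was the lowest of its group for the satellite glia (1168) and sensory neuron (6183) sums. The part of these cells in the cell cycle values was not tested. Of 9 satellite glia markers 2 were higher and 3 lower, and of 9 endothelial and pericyte markers 2 were higher and 2 lower. These counts are near the shares over all tested genes and are no result about those cells. Of 8 Schwann cell markers 0 were higher and 3 lower, and of 7 fibroblast markers 3 were higher. Of 12 sensory neuron markers 2 were higher and 8 lower. Of 2 tested lymphocyte markers 1 was lower, and of 5 tested erythroid markers none passed.

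**Figure D3:**
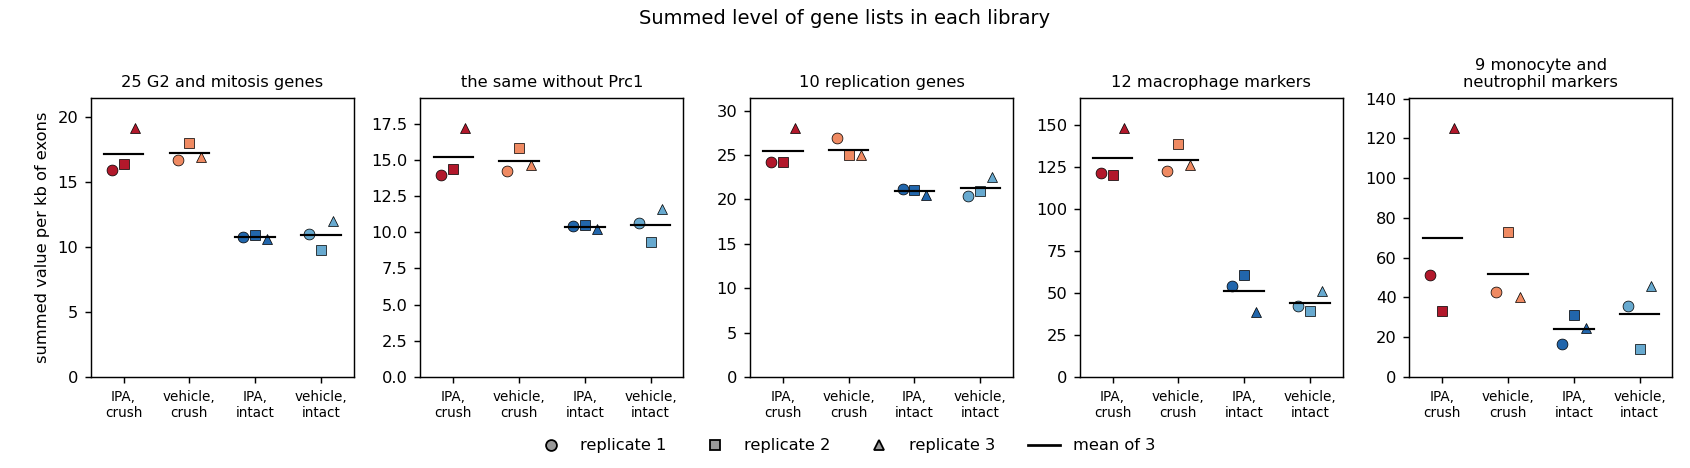
Summed value per kb of exon in each library for the mitosis genes with and without Prc1, the replication genes, macrophage markers and monocyte and neutrophil markers; symbols give the replicate and bars the mean of 3, and each axis starts at 0. Crush libraries lie above intact ones in the first 4 panels, and IPA-SNC replicate 3 is the highest library in all 5.

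Of 49 tested mitosis genes outside the 37, 28 were higher and 6 lower in the averaged contrast, with a median log2 change of 0.24, where 28.8% of all tested genes were higher and 30.6% lower. A low gene of this or any further list can pass the low-value filter with its crush libraries alone. Counts of genes that pass on intact libraries alone were made for the 37 members only, so this count is not separate support for a rise. Kif22, a chromosome-arm kinesin, was 14.5 ± 1.2 in IPA-SNC and 13.7 ± 2.23 in PBS-SNC libraries, against 3.2 ± 0.181 in IPA and 3.18 ± 0.129 in PBS libraries, a log2 change of 1.97 ± 0.08. Fam64a, named Pimreg in newer annotation, changed by 0.91 ± 0.10 and Cenpa, the centromeric histone, by 0.66 ± 0.08. Wee1, the kinase that holds CDK1 inactive, was lower, at 4.33 ± 0.234 in IPA-SNC and 4.36 ± 0.362 in PBS-SNC libraries, against 6.16 ± 0.472 in IPA and 6.47 ± 0.111 in PBS libraries, a log2 change of -0.49 ± 0.06. Of 34 tested replication genes outside the 37, 10 were higher and 3 lower, with a median of 0.08; the share higher is near the 28.8% of all tested genes. Uhrf1, which carries DNA methylation through replication, changed by 0.86 ± 0.12, Dbf4, the activator of the CDC7 kinase, by 0.52 ± 0.07 and Slbp, the histone mRNA binder, by 0.31 ± 0.04. Dut, which clears dUTP, was lower, at 12.8 ± 0.267 in IPA-SNC and 12.1 ± 0.359 in PBS-SNC libraries, against 17.4 ± 0.275 in IPA and 17.8 ± 0.759 in PBS libraries, a log2 change of -0.48 ± 0.04.

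Of 8 CDK inhibitors 6 were higher and 1 lower, against 28.8% higher and 30.6% lower of all tested genes. Cdkn1a, the p21 inhibitor, was 254 ± 11 in IPA-SNC and 255 ± 17.9 in PBS-SNC libraries, against 72.4 ± 3.74 in IPA and 69.8 ± 4.46 in PBS libraries, a log2 change of 1.83 ± 0.04 (adjusted p = 3.91e-13), and Cdkn3, a phosphatase of CDKs, changed by 0.94 ± 0.06. Cdkn2b, the p15 inhibitor of CDK4 and CDK6, changed by 0.45 ± 0.07. Cdkn1b, the p27 inhibitor, was lower, with a log2 change of -0.26 ± 0.04.

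Of the 37 members, 32 had a RefSeq window; Ccnd1, Aurkb, Ccna2, Tpx2 and Mcm4 are named only. A CHR match on either strand was found in 20 of 22 mitosis and 4 of 9 replication windows, where 27.6% of all 32851 windows of the table held one. A CCAAT match was found in 19 of 22 mitosis and 8 of 9 replication windows, against 37.4% of all windows. An E2F match was found in 1 of 22 mitosis windows (Cdk1) and 4 of 9 replication windows (Mcm3, Mcm5, Mcm6 and Mcm7), against 2.26% of all windows. Within 50 bases of the start, a distance chosen after the positions were seen, a CHR match lay in 18 of 22 mitosis and 2 of 9 replication windows and in 8.28% of all windows. Among members higher after crush 18 of 24 held a CHR match, and among those not called 7 of 8 did. Matches of different motifs shared 1 base in Cdca8 (CHR and CCAAT) and in Mcm7 (CCAAT and E2F). These counts describe letters in 1 window per gene, up to 2394 bases from the GENCODE start, and no binding was measured.

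**Figure D4:**
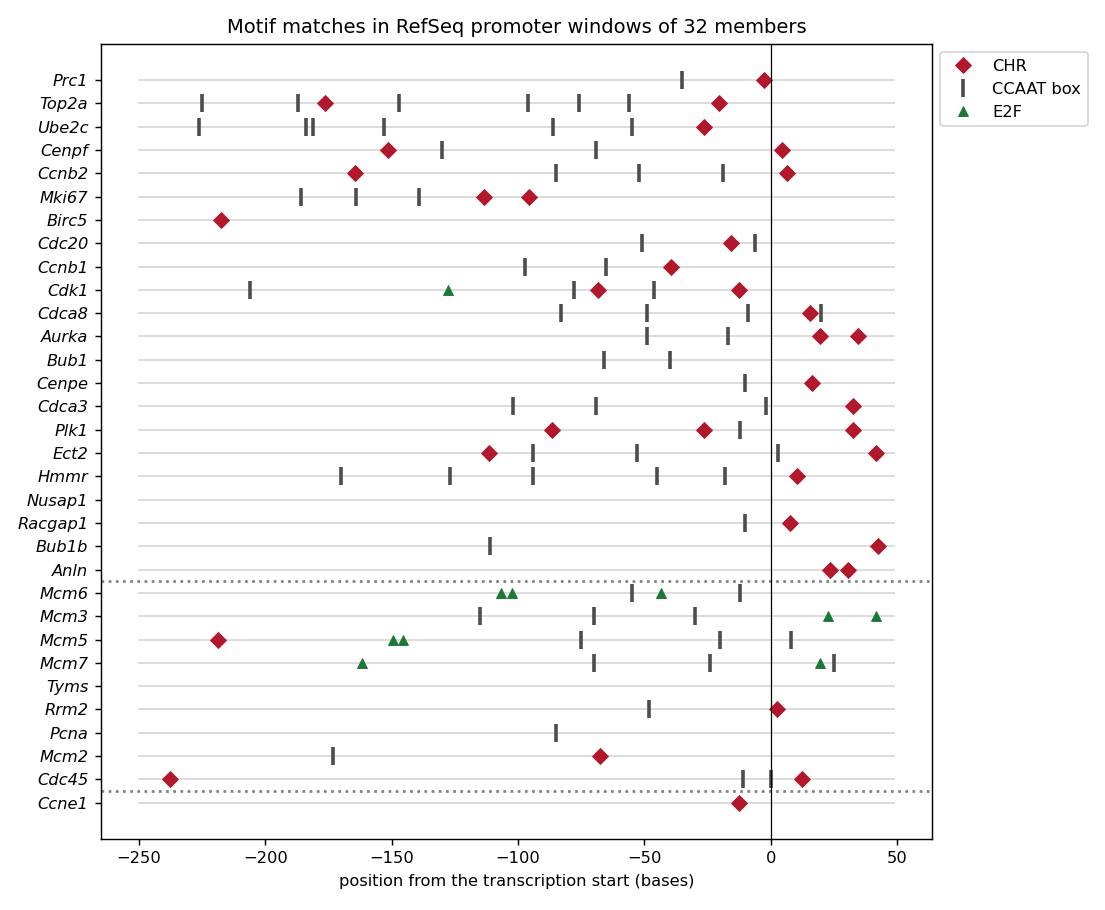
Positions of CHR (diamonds), CCAAT (bars) and E2F (triangles) matches from 250 bases before to 50 after the start in the windows of 32 members, ordered within class by averaged injury change; dotted lines part mitosis, replication and S-phase entry genes. CHR matches lie near the start in mitosis genes of both large and small change, and E2F matches cluster in the MCM genes.

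IPA did not move any member past the threshold. After crush (IPA-SNC against PBS-SNC) limma called 0 members and 0 of 15603 genes, 0.0% of those tested, with 1258 genes (8.06%) at an unadjusted p under 0.05; edgeR called 0 genes and DESeq2 15 (0.0961%). With an intact nerve (IPA against PBS) limma called 0 members and 0.0% of genes, with 1902 (12.2%) at an unadjusted p under 0.05; edgeR called 0 and DESeq2 3 (0.0192%). For the interaction of IPA and injury limma called 0 members and 0.0% of genes, with 327 (2.1%) at an unadjusted p under 0.05; edgeR called 0 and DESeq2 3 (0.0192%). No member was called by either tool on reads. In each of these contrasts 1 of 37 members had an unadjusted p under 0.05.

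After crush that member was Prc1, all of whose IPA-SNC libraries (16.6, 16.9 and 16.2) lay below all PBS-SNC libraries (20.4, 18.1 and 19.1). Its log2 change was -0.21 ± 0.08 (unadjusted p = 0.0169, adjusted p = 0.581), and 5.58% of tested genes lay below without overlap. Cdca3 was at 1.84, 1.97 and 2.18 in IPA-SNC and 1.51, 1.6 and 1.93 in PBS-SNC libraries, which overlapped, with a log2 change of 0.20 ± 0.10 (adjusted p = 0.637). Ccnd1, whose IPA-SNC replicate 3 was the lowest of all 12 libraries, had -0.18 ± 0.09 (adjusted p = 0.637). Cdca8 was the 1 member with all IPA-SNC libraries above all PBS-SNC libraries, at 2.96, 2.89 and 3.04 in IPA-SNC and 2.8, 2.89 and 2.82 in PBS-SNC libraries, with the nearest values alike when rounded, a log2 difference of 0.05 ± 0.10; 5.86% of tested genes did so.

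With an intact nerve Bub1 had the smallest p. It stood at 0.504, 0.574 and 0.541 in IPA and 0.809, 0.872 and 0.811 in PBS libraries, with every IPA library below every PBS library. Its log2 change was -0.36 ± 0.09 (unadjusted p = 0.00185, adjusted p = 0.408); after crush it was -0.07 ± 0.09, with 1.03, 1.15 and 1.04 in IPA-SNC and 1.27, 1.09 and 1.09 in PBS-SNC libraries. Aurka stood at 4.19, 4.35 and 4.48 in IPA and 3.37, 3.53 and 4.17 in PBS libraries, all IPA libraries just above all PBS libraries (0.21 ± 0.10, adjusted p = 0.409). Prc1 was -0.13 ± 0.08 (adjusted p = 0.428), with overlap. All Anln values of IPA libraries also lay below those of PBS libraries; 12.5% of tested genes lay below without overlap and 12.7% above.

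The interaction, the injury change under IPA minus that under vehicle, had its smallest p values in Bub1 (0.29 ± 0.13, unadjusted p = 0.0462), Anln (0.29 ± 0.14) and Ccnd1 (-0.23 ± 0.13), none of which passed the threshold. The longer dosing of IPA-SNC than of IPA mice is part of this difference and cannot be told apart from it. On the log2(value + 0.5) scale the 95% interval of the IPA effect stayed within 1.5-fold for 36 of 37 members after crush and 34 of 37 with an intact nerve, and that of the interaction for 26 of 37. The added 0.5 shrinks low genes, so these are not bounds on the fold of a gene: for Bub1 with an intact nerve edgeR gave a log2 change of -0.63 on recovered reads where limma gave -0.36, and Aurkb and Ccnb1 lie under 0.5 in intact libraries. A p that misses the threshold does not show that a gene was the same in both groups.

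**Figure D5:**
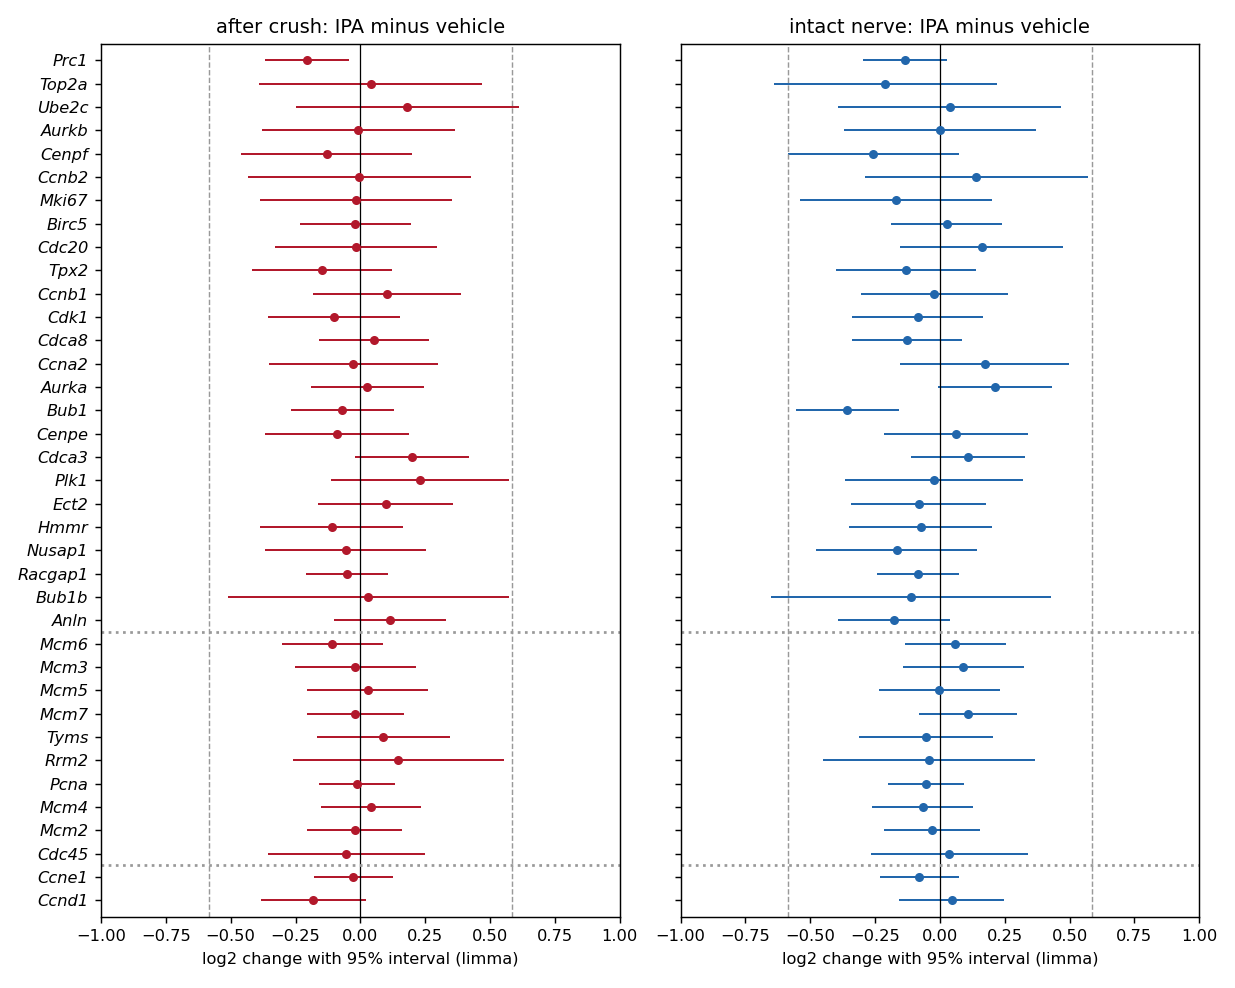
Log2 change with its 95% interval (limma) for IPA minus vehicle in each member, after crush (left) and with an intact nerve (right); dashed lines mark 1.5-fold on the log2(value + 0.5) scale, and dotted lines part mitosis, replication and S-phase entry genes. Most intervals include 0, and those of Prc1 after crush and Bub1 with an intact nerve do not.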

How the data were processed

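Poly(A) RNA of L4 to L6 DRG was sequenced from 12 libraries, 3 per group, with a strand-specific kit and 75-base paired reads, per the labels' protocols. The authors' deposited table is named for FPKM, but its values behave as CPM: all values of a library are whole multiples of 1 step (tolerance 1e-06), whatever the gene's length, so they are treated here as CPM values made by the authors. Reads were aligned to mm10 with STAR 2.7.0, and edgeR 3.24.3, limma 3.38.3 and R 3.5.0 were used, per the submitters' processing notes; for the counting step, program and annotation were not given in the sources used here. Gene IDs were matched to GENCODE M21 (36588 of 44345), which gave coordinates and exon lengths.

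Here limma 3.58.1 (R 4.3.3, trended) was fitted to log2(value + 0.5) of the 15603 genes with at least 0.5 in at least 3 libraries, over all 12 libraries (8 residual degrees of freedom), with Benjamini-Hochberg adjustment over all tested genes and calls at 0.05. All adjusted p and unadjusted p values are two-sided values of this limma fit unless another tool is named. Log2 changes are given ± SE and understate the changes of low genes. Reads recovered from the steps were tested with edgeR 4.0.16 (quasi-likelihood) and DESeq2 1.42.0. The limma fit was tested on simulated data. Other pseudocounts, filters, scalings, sample sets and a replicate block were tried, and each library was left out in turn. Depth was 40938034 to 62501969 recovered reads per library. Counting error is not separated from other error in these values.

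Each library is a separate pool of 2 mice, and no batch is given in the labels. Members and lists were chosen with earlier results of these data known. Values in every library are printed for the 4 members of each class with the largest averaged injury change, for the 2 replication and 2 mitosis genes with the smallest, and for the 3 with the smallest p in each IPA contrast and the interaction; other lists give up to 4 members with the smallest p in the averaged injury contrast. The library values of Cdca8 and Rrm2 were added after their values were seen.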

Additional observations from a re-analysis of the deposited data

How the results depend on the processing

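None of the values recomputed, which were the counts, the member calls in the injury contrasts and the 3 members with the smallest p in each IPA contrast and the interaction, reversed its direction under the settings run; members not called after injury were not recomputed one by one. Of 75 member calls in the injury contrasts, 63 held under every setting in which the gene was tested and 12 were lost under at least 1: Ect2, Hmmr and Plk1 in the averaged contrast, Ccna2, Ccnb2, Ect2 and Plk1 under IPA, and Anln, Bub1, Cdca3, Cenpe and Tyms under vehicle. Aurkb, Ccnb1 and Ccnb2 were not tested in every setting. In the averaged contrast they had values in 21 settings, where the other called members had 22. The number of members lower under vehicle was 0 with no filter and 0 to 1 with 1 library left out. Under IPA and in the averaged contrast it was 1 with quantile normalization and 1 at a threshold of 0.1, and 0 to 1 with 1 library left out. For all genes, DESeq2 called 3 for IPA without injury, 15 for IPA after injury and 3 for the interaction, where limma called 0; with 1 library left out limma called 0 to 1 for IPA after injury. Leaving out 1 library gave 15 to 19 mitosis genes higher under IPA, 17 to 18 under vehicle and 18 to 20 in the averaged contrast. The cause of these differences was not tested. Same-numbered libraries had deviations that correlated at -0.25 to 0.29, and differently numbered ones at -0.35 to 0.29. With 3 libraries per group these ranges cannot settle whether the numbers pair the samples. With a replicate block 5 replication and 18 mitosis genes were higher under IPA, 4 and 18 under vehicle, and 6 and 20 in the averaged contrast, and 0 genes were called for IPA. Members such as Aurkb, Ccnb1, Ccnb2 and Cenpf rest on few reads in intact libraries, which limits the precision of their changes.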

Other observations

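Of 18 tested genes of the E2F, RB and DREAM families 4 were higher and 5 lower in the averaged injury contrast (limma, adjusted p under 0.05), with a median log2 change of 0.02, against -0.01 over all tested genes. These counts are near the shares over all tested genes, 28.8% higher and 30.6% lower, and are no result about the families. Foxm1, a transcription factor of G2 and mitosis genes, was 2.56 ± 0.225 in IPA-SNC and 2.83 ± 0.126 in PBS-SNC libraries, against 1.75 ± 0.13 in IPA and 1.71 ± 0.0873 in PBS libraries, a log2 change of 0.52 ± 0.06 (adjusted p = 9.35e-06). Tfdp1, the partner of the E2F proteins, changed by 0.39 ± 0.04. E2f1, an activator of replication genes, was lower, at 28.1 ± 1.91 in IPA-SNC and 26.6 ± 1.74 in PBS-SNC libraries, against 34.5 ± 0.674 in IPA and 33.9 ± 1.87 in PBS libraries, a log2 change of -0.32 ± 0.05 (adjusted p = 3.87e-05), and so was the repressor E2f6, with a log2 change of -0.27 ± 0.04.

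Of 9 tested G1 cyclins and CDKs outside the 37 genes, 3 were higher and 2 lower, again near those shares, with a median of -0.03. Cdk4, the partner of the D cyclins, was 37.3 ± 0.432 in IPA-SNC and 38.9 ± 2.97 in PBS-SNC libraries, against 29.4 ± 1.63 in IPA and 26.4 ± 0.928 in PBS libraries, a log2 change of 0.44 ± 0.04 (adjusted p = 8.79e-07). Cdk6 changed by 0.62 ± 0.09, Cdk2, the partner of cyclin E, by 0.28 ± 0.10, and Cdk7, the CDK-activating kinase, by -0.44 ± 0.05.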
